A study of Mus musculus with 12 samples.

Results

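CC chemokines other than Ccl5 were followed in the RNA sequencing of airway macrophages (AMs) given lipopolysaccharide (LPS) in culture. The members were 6 listed genes of the 20551 in the count table, Ccl2, Ccl3, Ccl4, Ccl6, Ccl9 and Ccl17, matched by Ensembl ID to GENCODE mouse symbols, and all 6 passed the filter on low counts that left 13729 genes. They belong to 14 CC chemokine genes analysed here, of which 11 were tested. Cells came from C57BL/6 mice that carry the Scnn1b transgene (Scnn1b-Tg), which encodes a subunit of the epithelial sodium channel, or from wild-type (WT) mice, which served as controls. The study states that the transgene is driven by the club cell secretory protein promoter, a promoter of airway epithelium. By fluorescence microscopy it found no SCNN1B protein in AMs of either genotype. Per its methods, mice for sequencing were 6 weeks old. According to the labels, each pool was made of lavage cells from 3 to 4 animals, and its adherent cells received LPS of Pseudomonas aeruginosa at 100 ng/ml or medium alone. Cells were harvested after 12 h. The study's methods describe instead AMs sorted from digested lungs by flow cytometry, so the isolation is given differently by the sources. There were 12 libraries in 4 groups of 3, with both genotypes kept in medium or given LPS, from WT pools 16, 17 and 18 and Scnn1b-Tg pools 17, 18 and 19. Library batch 1 held WT 16, WT 17 and Tg 17, and batch 2 held WT 18, Tg 18 and Tg 19.

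Chemokines are small secreted proteins that form gradients and steer leukocytes through G protein-coupled receptors. Members of the CC family have adjacent cysteines near their amino terminus and act mainly on monocytes, macrophages, T cells and dendritic cells. In macrophages, LPS is sensed by TLR4, whose signal reaches NF-kappaB, AP-1 and the interferon regulatory factors, and several chemokine genes are known targets of these factors. Ccl3 and Ccl4 are classical products of activated macrophages, and Ccl3 acts on CCR1. Ccl6 and Ccl9 are rodent chemokines that myeloid cells make without stimulation and that signal through CCR1. Ccl2 draws monocytes through CCR2, and Ccl17 draws T cells through CCR4.

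Libraries held 48.2 to 60.9 M deposited counts, and levels are given as counts per M counts (CPM) scaled by TMM factors. All 10 analysed AM markers were detected. Their summed level ranged from 1860 to 2550 CPM in Scnn1b-Tg medium and from 1900 to 2120 CPM in WT medium, and was 1600 to 2830 CPM in Scnn1b-Tg and 1690 to 2040 CPM in WT with LPS. Tg 19 stood apart from the other Tg pools in medium, with 55.4 CPM of Krt79 against 14.6 and 18.5, and 725 CPM of Marco against 429 and 382. The WT medium libraries held 47.6 to 63.9 CPM of Krt79 and 587 to 661 CPM of Marco. For both genes Tg 19 was thus closer to WT than Tg 17 and Tg 18 were. Scnn1b itself had 0 to 40 counts per library in WT and 4 to 29 in Scnn1b-Tg libraries, so its level did not separate the genotypes in these cells. The bulk RNA of a pool cannot tell fewer cells of a type from less RNA per cell.

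The members that the LPS results turn on lie together. Ccl3 (chr11:83647844-83649355, minus strand, mm10), Ccl4 (chr11:83662584-83664683, plus strand), Ccl6 (chr11:83587882-83593087, minus strand) and Ccl9 (chr11:83572919-83578636, minus strand) are protein-coding genes of 1 cluster, in the order Ccl9, Ccl6, Ccl3 and Ccl4, with Ccl5 at its other end. Ccl2 (chr11:82035571-82037453, plus strand) lies farther along chromosome 11, and Ccl17 (chr8:94810453-94812036, plus strand) is on chromosome 8. No exon of a member overlaps an exon of another annotated gene. The longest stretch that a member's transcripts share exactly with another CC chemokine is 25 bases, between Ccl6 and Ccl9, against reads of 125 bp.

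RefSeq (GRCm38.p6) gave a promoter for 4 of the 6 members. The 250 bases before the start are shown for the 3 cluster genes among them, because these neighbours answered LPS in 3 ways, with a strong rise of Ccl3, a modest rise of Ccl9 and a fall of Ccl6. Capitals mark a PU.1 match in Ccl3 and, in Ccl9 and Ccl6, the runs of at least 10 bases that these promoters share.
Ccl3 (chr11:83649379-83649628, minus strand): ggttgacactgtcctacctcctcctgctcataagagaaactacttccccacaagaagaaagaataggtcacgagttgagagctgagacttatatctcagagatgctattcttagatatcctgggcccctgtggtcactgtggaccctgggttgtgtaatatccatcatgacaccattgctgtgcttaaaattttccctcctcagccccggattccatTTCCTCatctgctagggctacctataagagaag
Ccl9 (chr11:83578637-83578886, minus strand): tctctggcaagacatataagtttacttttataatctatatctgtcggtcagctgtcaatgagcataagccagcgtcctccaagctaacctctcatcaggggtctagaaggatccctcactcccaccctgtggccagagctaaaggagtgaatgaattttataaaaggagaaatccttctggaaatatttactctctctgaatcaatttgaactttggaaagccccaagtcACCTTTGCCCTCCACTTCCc
Ccl6 (chr11:83593088-83593337, minus strand): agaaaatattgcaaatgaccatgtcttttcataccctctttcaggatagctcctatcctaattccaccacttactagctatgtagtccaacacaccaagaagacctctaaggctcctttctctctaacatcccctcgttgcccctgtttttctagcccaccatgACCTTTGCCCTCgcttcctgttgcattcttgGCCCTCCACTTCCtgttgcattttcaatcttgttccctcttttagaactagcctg
The Ccl9 and Ccl6 stretches share runs of 12 and 13 bases. In Ccl9 these runs overlap just before the start, whereas in Ccl6 they stand apart, with the first run beginning at position -86 and the second at -55.

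Both strands of the 250 bases were searched for 8 motifs. An NF-kappaB motif was found in Ccl9 from position -35 to -26 (GGGGCTTTCC on the minus strand of the gene), and this motif was present in 3.9% of the 32851 promoters of the table. Ccl9 also held an AP-1 motif (TGANTCA) from -53 to -47, a motif of 6.75% of promoters, which did not overlap the NF-kappaB match. Ccl3 held a PU.1 motif (GAGGAA) from -33 to -28 on the minus strand of the gene, a motif of 23.3% of promoters, and none of the other letters searched. Positions count from the RefSeq start, which for Ccl3 lies 23 bases upstream of the GENCODE start and for Ccl9 and Ccl6 coincides with it. Ccl6 held none of the 8. TATAAA, found in 12.4% of promoters, matched in Ccl9 at 3 positions, of which 2 overlap on opposite strands. The unmatched motifs in the cluster genes were TGACGTCA (CRE, 1.55% of promoters), TTGCNNAA (C/EBP, 9.56%), TTCNNNGAA (STAT, 7.02%) and the interferon-stimulated response element (ISRE, 2.98%). These are matches of letters in a short window, and factor binding was not measured here.

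LPS was compared with medium to ask how each genotype answers a bacterial product. Ccl3 and Ccl4 rose steeply in both genotypes, Ccl9 rose 1.57- and 2.09-fold, and Ccl6 fell. Ccl2 and Ccl17 were near the detection limit. In WT AMs 4 of 6 members passed an adjusted p of 0.05 in edgeR, 3 higher and 1 lower, where 31.8% of all tested genes passed, 15.5% higher and 16.2% lower. In Scnn1b-Tg AMs the same counts of members passed, against 38.1% of all genes, 19.3% higher and 18.7% lower. The median log2 change of the members was 0.84 in WT and 0.91 in Scnn1b-Tg, beside 0.00 and -0.02 over all genes tested.

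**Figure D1:**
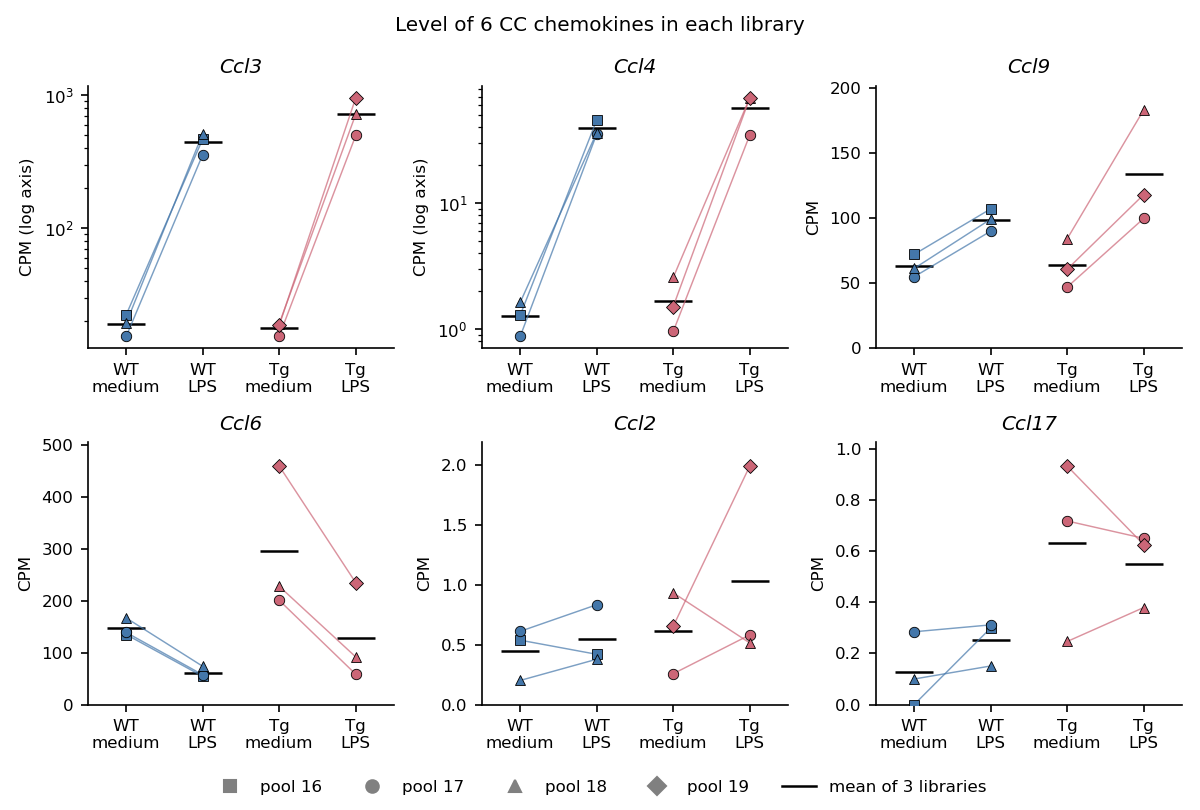
Level of each member in CPM (vertical axis, logarithmic for Ccl3 and Ccl4 and linear from 0 for the others) in the 4 groups. Symbols are libraries, shaped by pool, thin lines join the medium and LPS library of a pool, and black bars are means of 3 libraries. Ccl3 and Ccl4 are higher with LPS in all 6 pools, and Ccl6 is lower in all 6, with pool 19 of Scnn1b-Tg standing above the rest.

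Ccl3 encodes a macrophage inflammatory protein that attracts monocytes, T cells and neutrophils. In WT medium its level was 22.4, 15.4 and 19.4 CPM in pools 16, 17 and 18, and with LPS it reached 469, 358 and 515 CPM. In Scnn1b-Tg medium pools 17, 18 and 19 held 15.5, 19.2 and 18.7 CPM, and with LPS they held 498, 719 and 954 CPM. The LPS libraries lay far above the medium libraries in both genotypes with no overlap, and the medium libraries of the genotypes were intermingled. The log2 change was 4.53 ± 0.21 (SE, n = 3 against 3) in WT, a 23.2-fold rise (edgeR, adjusted p = 6.32e-08). It was 5.32 ± 0.21 in Scnn1b-Tg, a 40.1-fold rise (edgeR, adjusted p = 1.86e-08).

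Ccl4 is the close companion of Ccl3, transcribed from the opposite strand 13.2 kb away. WT medium libraries held 1.29, 0.876 and 1.63 CPM for pools 16, 17 and 18, and WT LPS libraries 45.7, 35.4 and 36.3 CPM. Scnn1b-Tg pools 17, 18 and 19 went from 0.958, 2.57 and 1.51 CPM in medium to 34.7, 68.4 and 68.2 CPM with LPS. Again no LPS library overlapped a medium library, while Tg 17 with LPS fell below all 3 WT LPS libraries. The log2 change was 5.00 ± 0.30 in WT (edgeR, adjusted p = 5.45e-07) and 5.08 ± 0.30 in Scnn1b-Tg (edgeR, adjusted p = 2.40e-07), or 32- and 33.8-fold. Ccl4 started from a far lower level than Ccl3, at 1.26 ± 0.376 CPM in WT medium against 19.1 ± 3.51.

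Ccl9, a chemokine that myeloid cells carry at rest and that attracts dendritic cells and osteoclast precursors, rose modestly. Its level in WT pools 16, 17 and 18 was 72.1, 54.9 and 61.3 CPM in medium and 107, 89.9 and 99.1 CPM with LPS. For Scnn1b-Tg pools 17, 18 and 19 it was 47, 84.1 and 60.7 CPM in medium and 99.7, 183 and 118 CPM with LPS. LPS libraries were above medium libraries in each genotype without overlap. The log2 change was 0.65 ± 0.21 in WT (edgeR, adjusted p = 0.039) and 1.06 ± 0.21 in Scnn1b-Tg (edgeR, adjusted p = 0.00238). The WT call was lost without WT medium 17 (0.60, edgeR adjusted p = 0.116), WT medium 18 (0.53, edgeR adjusted p = 0.159), WT LPS 16 (0.53, edgeR adjusted p = 0.118) or WT LPS 17 (0.67, edgeR adjusted p = 0.0696), without the batch term (0.65, edgeR adjusted p = 0.0655) and without the filter on low counts (0.68, edgeR adjusted p = 0.063). These fits did not pair the libraries of a pool, and with the libraries blocked by pool the WT call was kept. The Scnn1b-Tg call was kept under every alternative run.

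Ccl6 was the member that fell. It encodes a chemokine that is abundant in resting mouse macrophages. WT pools 16, 17 and 18 had 135, 139 and 167 CPM in medium and 54.3, 57.3 and 73.7 CPM with LPS. Scnn1b-Tg pools 17, 18 and 19 had 201, 228 and 460 CPM in medium and 58.4, 91.8 and 235 CPM with LPS. The WT groups did not overlap, whereas in Scnn1b-Tg the LPS library of pool 19 lay above the medium libraries of pools 17 and 18. All the same, every pool fell, by a log2 change of -1.30, -1.27 and -1.17 in WT pools 16, 17 and 18 and of -1.78, -1.31 and -0.97 in Scnn1b-Tg pools 17, 18 and 19. The fitted log2 change was -1.26 ± 0.36 in WT (edgeR, adjusted p = 0.0195) and -1.27 ± 0.36 in Scnn1b-Tg (edgeR, adjusted p = 0.0156), which are 2.4- and 2.41-fold falls.

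In the main fit, which did not pair the libraries of a pool, the call of Ccl6 depended on single libraries. In WT it was lost without WT medium 16 (-1.20, edgeR adjusted p = 0.0534), WT medium 17 (-1.17, edgeR adjusted p = 0.0602) or WT LPS 18 (-1.13, edgeR adjusted p = 0.0859), and in Scnn1b-Tg without Tg medium 19 (-0.94, edgeR adjusted p = 0.0842), Tg LPS 17 (-0.98, edgeR adjusted p = 0.0745) or Tg LPS 18 (-1.04, edgeR adjusted p = 0.0565). It was also lost without the batch term, at an adjusted p of 0.0585 in WT and 0.0543 in Scnn1b-Tg (edgeR). With the libraries blocked by pool, which pairs medium and LPS, the call was kept in both genotypes.

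**Figure D2:**
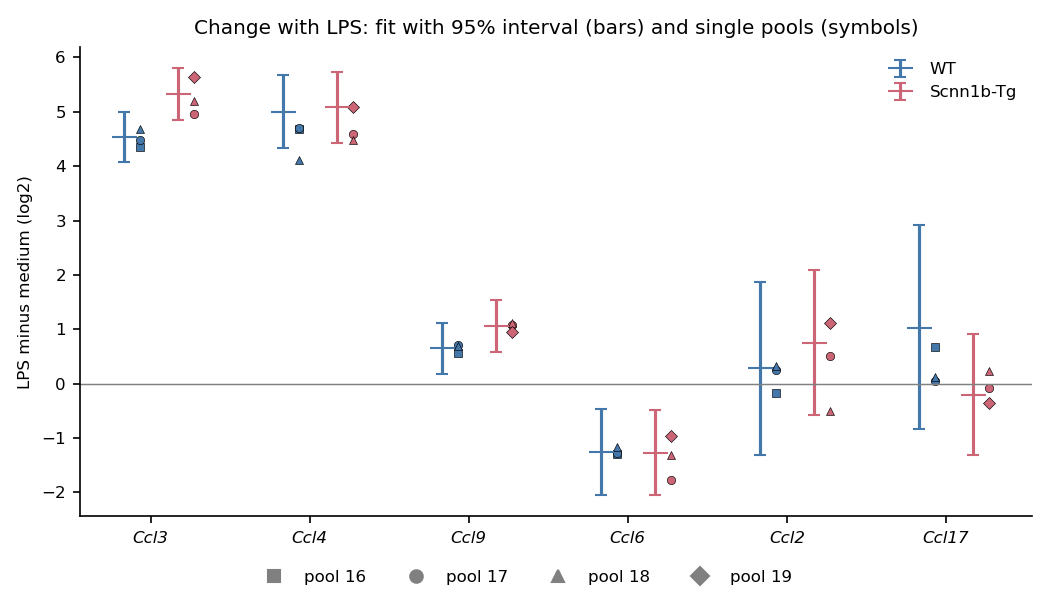
Change of each member with LPS on a log2 scale (vertical axis), with the edgeR estimate and its 95% interval for WT and Scnn1b-Tg and, beside each, the change of the 3 pools on log2 of CPM plus 0.5. For Ccl3 and Ccl9 the 3 Scnn1b-Tg pools lie above the 3 WT pools, and the Ccl6 pools of both genotypes lie below 0.

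Ccl2 and Ccl17, which draw monocytes and T cells, were barely present. Ccl2 had 10 to 105 deposited counts per library, with 0.45 ± 0.219 CPM in WT medium, 0.543 ± 0.252 in WT LPS, 0.614 ± 0.339 in Scnn1b-Tg medium and 1.03 ± 0.835 with LPS in Scnn1b-Tg (mean ± SD over 3 libraries). The single highest value, 1.99 CPM, was that of Tg 19 with LPS, and the groups overlapped throughout. Its log2 change with LPS had 95% intervals of -1.31 to 1.87 in WT and -0.58 to 2.09 in Scnn1b-Tg (edgeR, adjusted p = 0.808 and 0.368), so a change of up to about 4-fold could have been missed.

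Ccl17 had 0 to 50 counts, and 3 of 12 libraries held at most 8, taken as the worth of 3 reads. Pools 16, 17 and 18 of WT had 0, 0.285 and 0.1 CPM in medium, where a count of 0 allows up to 0.143 CPM in pool 16, and 0.3, 0.312 and 0.151 CPM with LPS. Pools 17, 18 and 19 of Scnn1b-Tg had 0.719, 0.247 and 0.934 CPM in medium and 0.651, 0.38 and 0.626 CPM with LPS. Its log2 change with LPS had intervals of -0.84 to 2.91 in WT and -1.32 to 0.92 in Scnn1b-Tg (edgeR, adjusted p = 0.406 and 0.796). Such floors and intervals cover counting error or the spread of these libraries only.

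Markers of other cell types differed with LPS as well. The summed level of monocyte markers (6 of 8 listed were analysed, and all 6 exceeded 8 counts in some library) was 0.733 to 1.17 CPM in WT medium and 4.27 to 4.34 with LPS, and 0.878 to 1.25 CPM in Scnn1b-Tg medium and 4.68 to 8.05 with LPS. No analysed marker of this list was at 0 in all libraries. Of the 6 interstitial macrophage markers listed, C1qa, C1qb, C1qc, Folr2 and Lyve1 were at low levels. Their sum was lower with LPS, at 0.964 to 2.63 CPM in WT medium and 0.151 to 0.958 with LPS, and at 0.822 to 2.28 CPM in Scnn1b-Tg medium and 0.352 to 0.759 with LPS. Single markers did not all fall in every pool, since C1qb in Tg 19 was at 0.336 CPM in medium and 0.569 with LPS. Lyve1 had no counts in WT. Markers of the AMs themselves differed in both directions. Siglecf lay at 103 to 128 CPM in the 6 medium libraries and at 5.08 to 13.5 in the 6 LPS libraries, Fabp4 at 191 to 387 and 18 to 36.6 CPM, Pparg at 121 to 160 and 25.6 to 30.4 CPM, and Marco at 382 to 725 and 1090 to 2220 CPM. The part of these markers in the chemokine changes was not tested.

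The change of pools was used to ask whether the genotypes answered LPS differently. The interaction passed for 0 of 6 members in edgeR, as for 0% of all genes, and for 0 members in DESeq2 and in voom. Ccl3 alone had an unadjusted p under 0.05, a share of 5.95% of all genes tested. Its fitted difference was 0.79 ± 0.26 (log2, Scnn1b-Tg minus WT, 95% interval 0.23 to 1.35, edgeR, unadjusted p = 0.0104, adjusted p = 0.67).

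In single pools, Ccl3 rose by a log2 change of 4.36, 4.49 and 4.69 in WT 16, 17 and 18 and of 4.96, 5.19 and 5.64 in Tg 17, 18 and 19. Ccl9 rose by 0.56, 0.71 and 0.69 in the WT pools and by 1.08, 1.12 and 0.95 in the Tg pools. For both genes every Scnn1b-Tg pool rose by more than every WT pool, as was the case for 9.18% of all genes tested, with means of 5.26 ± 0.34 against 4.51 ± 0.17 for Ccl3 and 1.05 ± 0.09 against 0.65 ± 0.08 for Ccl9 (SD, n = 3). The exact two-sided permutation test gave p = 0.1 for each, the smallest value that 3 pools against 3 allow.

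The remaining members showed no such split. Ccl4 rose by 4.50 ± 0.34 in WT pools and 4.73 ± 0.32 in Scnn1b-Tg pools (exact permutation p = 0.6), and Ccl6 changed by -1.25 ± 0.07 and -1.35 ± 0.41 (exact permutation p = 0.7). The fitted difference between the genotypes had 95% intervals of -0.85 to 1.00 for Ccl4 and -1.11 to 1.09 for Ccl6 on the log2 scale, which leave room for a change of about 2-fold either way. For Ccl9 the fitted difference was 0.42 ± 0.30, with an interval of -0.25 to 1.08.

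**Figure D3:**
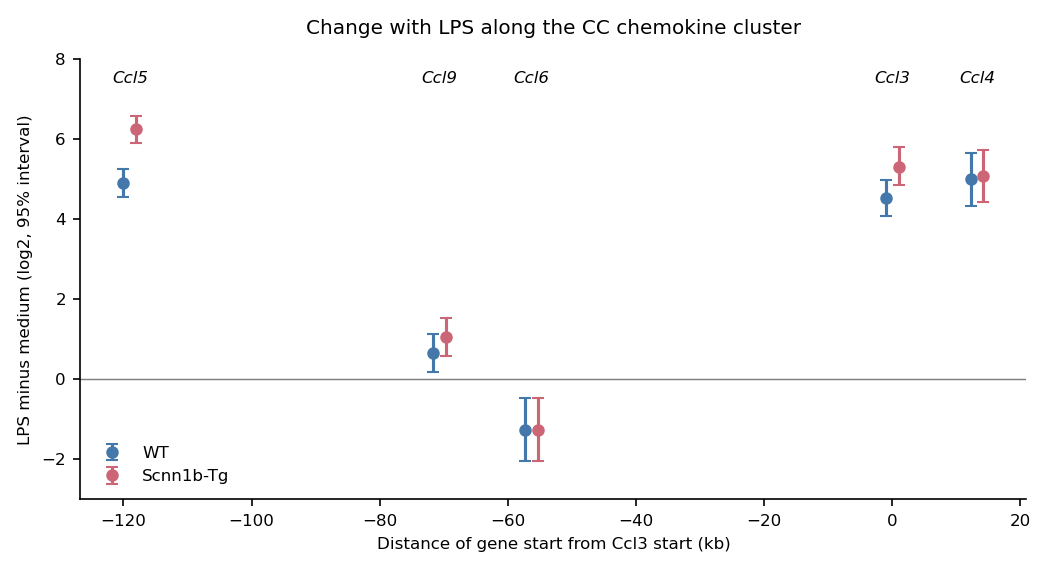
Log2 change with LPS (vertical axis, edgeR estimate and 95% interval) against the distance of each gene's start from that of Ccl3 in kb, for the tested genes of the cluster. Blue is WT and red Scnn1b-Tg. Ccl5, Ccl3 and Ccl4 sit between 4.53 and 6.25, while Ccl9 and Ccl6 between them sit from -1.27 to 1.06.

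Along the cluster, the strong responders stood at its ends. Ccl5, which recruits T cells and lies 119 kb from Ccl3 on the side of Ccl9, rose by a log2 change of 4.90 in WT and 6.25 in Scnn1b-Tg, and Ccl4 closed the other end. The starts of Ccl9 and Ccl6 lie 70.7 and 56.3 kb from that of Ccl3 on the same side as Ccl5. Between the start of Ccl9 and that of Ccl3, E230016K23Rik, a processed transcript that spans Ccl6 on the opposite strand, and the ribosomal gene copy Rpl9-ps1 were in the table but did not pass the filter on low counts. Counting ignored strand, so reads from an intron or an opposite strand could not be separated by strand.

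Scnn1b-Tg AMs were compared with WT AMs in medium to describe the resting cells. None of the 6 members passed in edgeR, where 0.335% of all genes did, and none passed in DESeq2 or voom. Only Ccl17 had an unadjusted p under 0.05, against 13.4% of all genes tested. Its log2 difference was 2.49 ± 0.72 (edgeR, unadjusted p = 0.00528, adjusted p = 0.169), at levels of 0.633 ± 0.351 CPM in Scnn1b-Tg and 0.129 ± 0.145 in WT. The Tg 18 library, at 0.247 CPM, lay below the WT 17 library, so the groups overlapped. The log2 difference was 1.80 without the WT 16 medium library and 3.74 without the WT 17 medium library, and it did not pass in either fit. Within batches the difference was 0.96 in batch 1 and 0.79 in batch 2, on log2 of CPM plus 0.5. With LPS it was 1.26 ± 0.63 (edgeR, adjusted p = 0.756), 0.51 and 0.61 within batches, and all 3 Scnn1b-Tg libraries lay above the WT libraries, as they did for 5.72% of all genes.

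Ccl6 was the only member for which every Scnn1b-Tg medium library lay above every WT medium library, a pattern held by 9.02% of all genes. The mean was 296 ± 142 CPM against 147 ± 17.3 in WT, with Tg 19 at 460 CPM alone accounting for much of the spread. The fitted log2 difference was 0.72 ± 0.37 (95% interval -0.09 to 1.53, edgeR, adjusted p = 0.436), and within batches it was 0.56 in batch 1 and 0.96 in batch 2. Without Tg medium 19 it was 0.46 (edgeR, adjusted p = 0.737). Ccl3, Ccl4, Ccl9 and Ccl2 differed between the genotypes in medium by log2 values of -0.23, 0.20, -0.10 and 0.29, none past an unadjusted p of 0.05 (edgeR).

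With LPS, again none of the 6 members separated the genotypes at an adjusted p of 0.05, where 0.051% of all genes did, and none did in DESeq2 or voom. Ccl3 had an unadjusted p of 0.0121 (edgeR, adjusted p = 0.464), and 7.12% of all genes tested were under 0.05. It stood at 724 ± 228 CPM in Scnn1b-Tg against 447 ± 80.8 in WT, a fitted log2 difference of 0.56 ± 0.18 (95% interval 0.15 to 0.96). The groups overlapped, since Tg 17 at 498 CPM was below WT 18 at 515 CPM. Within batches the difference was 0.28 in batch 1 and 0.69 in batch 2, and without Tg LPS 19 the fitted value was 0.39 (edgeR, adjusted p = 0.833).

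The other abundant members followed in the same direction with wider error. Ccl6 was at 128 ± 93.7 CPM against 61.8 ± 10.5 (log2 0.71 ± 0.38, edgeR, adjusted p = 0.784), with a within-batch difference of 0.07 in batch 1 and 0.99 in batch 2 and a fitted 0.17 without Tg LPS 19. Ccl9 was at 133 ± 43.9 against 98.6 ± 8.41 CPM (0.32 ± 0.22, edgeR adjusted p = 0.915), and the batches gave 0.03 and 0.56 in turn. Ccl4 was at 57.1 ± 19.4 against 39.2 ± 5.72 CPM (0.27 ± 0.25, edgeR adjusted p = 0.973), and here batch 1 gave -0.21 and batch 2 gave 0.90. For these 3 genes the higher mean of Scnn1b-Tg came from pools 18 and 19, both of batch 2, and the Tg 17 library lay within the WT range or, for Ccl4, below it. With 1 or 2 libraries of a genotype in each batch, the differences within batches could not be tested.

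Marker lists of other cell types also differed by genotype. Epithelial markers (6 of 6 analysed, led by Scgb1a1 and Sftpc) summed to 80.8 to 106 CPM in WT medium and 41.1 to 71.4 in Scnn1b-Tg medium, and to 78.8 to 114 and 34.7 to 65.4 CPM with LPS. Neutrophil markers (6 of 8 analysed) summed to 13.1 to 18.6 CPM in WT medium and 20 to 29 in Scnn1b-Tg medium, and to 12.8 to 13.9 and 15 to 20 CPM with LPS. This sum was not a pattern shared by the list. S100a9 had at most 5 counts per library, and in medium S100a8 and Mmp8 overlapped between the genotypes while Cxcr2 did not. With LPS, Cxcr2 was lower and S100a8 higher in both genotypes. T or NK cell markers (7 of 9 analysed) summed to 1.11 to 1.7 CPM in WT medium and 0.673 to 0.941 in Scnn1b-Tg medium, and overlapped with LPS. The monocyte markers, given above, did not overlap between the genotypes with LPS. The part of these lists in the differences of Ccl6, Ccl17 and Ccl3 was not tested.

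How the members rank was judged per length, as CPM per kb of merged annotated exon. In WT medium Ccl6 led at 81.7 ± 9.64, followed by Ccl3 at 24.9 ± 4.58 and Ccl9 at 20.6 ± 2.87, which did not differ beyond their spread. Ccl4 at 1.92 ± 0.57 came next, and Ccl2 and Ccl17 were lowest at 0.395 ± 0.192 and 0.25 ± 0.281, again within their spread. Scnn1b-Tg medium showed a like order at the top, with Ccl6 at 165 ± 79.2, Ccl3 at 23.2 ± 2.65 and Ccl9 at 21 ± 6.16. The order depends on the exon length used. Without division by length, Ccl9 in WT medium lay above Ccl3, at 62.8 ± 8.73 against 19.1 ± 3.51 CPM.

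LPS reordered them. Ccl3 led in WT at 583 ± 105 CPM per kb, ahead of Ccl4 at 59.3 ± 8.66, while Ccl6 at 34.4 ± 5.83 and Ccl9 at 32.4 ± 2.76 were level. Without division by length, Ccl4 in WT LPS at 39.2 ± 5.72 CPM lay below Ccl6 at 61.8 ± 10.5 and Ccl9 at 98.6 ± 8.41 CPM. In Scnn1b-Tg, Ccl3 reached 945 ± 298 CPM per kb, and Ccl4 at 86.5 ± 29.4, Ccl6 at 71.5 ± 52.2 and Ccl9 at 43.8 ± 14.4 overlapped. The summed level of all 14 CC chemokines analysed was 137 ± 10.2 CPM per kb in WT medium and 759 ± 110 in WT LPS, and 222 ± 79.9 and 1340 ± 395 CPM per kb in Scnn1b-Tg.

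**Figure D4:**
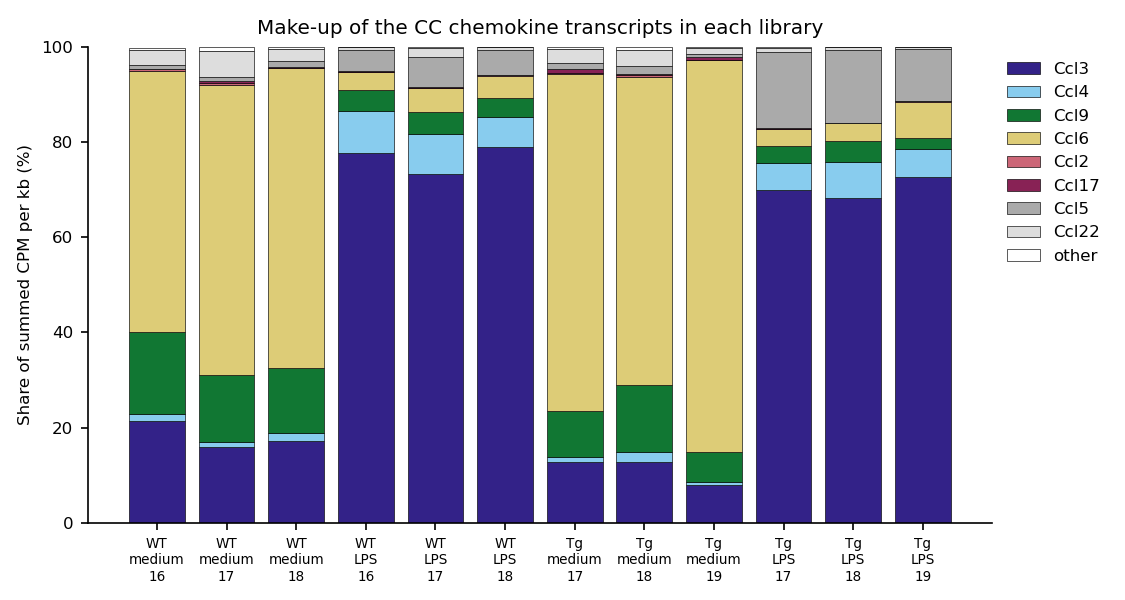
Share of each CC chemokine in the summed CPM per kb of all CC chemokines analysed (vertical axis, %), for each of the 12 libraries, with Ccl5 and Ccl22 in greys and the remaining genes in white. Ccl6 fills 54.9 to 82.2% of the medium bars and Ccl3 fills 68.3 to 78.9% of the LPS bars.

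As shares of that sum, Ccl6 made up 59.6 ± 4.18% in WT medium and 72.6 ± 8.84% in Scnn1b-Tg medium, and Ccl3 made up 18.2 ± 2.9% and 11.1 ± 2.85%. With LPS, Ccl3 took 76.6 ± 2.95% in WT and 70.3 ± 2.19% in Scnn1b-Tg, and Ccl6 shrank to 4.56 ± 0.627% and 4.95 ± 2.32%. Ccl5 had 5.33 ± 0.903% of the sum in WT LPS and 14.2 ± 2.8% in Scnn1b-Tg LPS. Over the 6 members in medium and with LPS, 3 of 12 shares did not overlap between the genotypes, Ccl6 and Ccl3 in medium and Ccl3 with LPS. Each was at the smallest p possible (exact two-sided permutation, p = 0.1, adjusted p = 0.34 over 12 tests). With 3 libraries against 3, a lack of overlap has a probability of 0.1 without any genotype difference. These shares exist for CC chemokines only, so no figure over all genes stands beside the count. The Ccl3 share with LPS was lower in Scnn1b-Tg although its mean level was higher, and shares of 1 sum depend on each other. Without division by length, the Ccl3 shares with LPS overlapped.

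Receptors were examined from a list of 11 CC receptors, of which 9 were analysed and 6 tested. In WT 2 rose with LPS and 1 fell, and in Scnn1b-Tg 1 rose and 1 fell. Ccr1, the receptor for Ccl3, Ccl6 and Ccl9, was the most abundant. Its WT pools 16, 17 and 18 had 65.1, 62.2 and 72.7 CPM in medium and 103, 94.9 and 84.5 CPM with LPS (log2 0.51 ± 0.17, edgeR, adjusted p = 0.0429). In Scnn1b-Tg pools 17, 18 and 19 the levels were 44.7, 64.6 and 54.4 CPM in medium and 74.1, 93.2 and 58.2 CPM with LPS (0.47 ± 0.17, edgeR, adjusted p = 0.0511).

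Ccr7, through which dendritic cells and T cells home to lymph nodes, was the list's only gene past the threshold between genotypes. WT medium libraries of pools 16, 17 and 18 held 1.88, 1.85 and 2.33 CPM and Scnn1b-Tg medium libraries of pools 17, 18 and 19 held 5.07, 5.8 and 4.17 CPM, a log2 difference of 1.33 ± 0.22 (edgeR, adjusted p = 0.042). With LPS it reached 7.21, 6.85 and 6.57 CPM in the WT pools and 16.6, 16 and 10.5 CPM in the Scnn1b-Tg pools. The rise with LPS was 1.76 ± 0.21 in WT (edgeR, adjusted p = 7.73e-05) and 1.52 ± 0.19 in Scnn1b-Tg (edgeR, adjusted p = 7.64e-05). The ligands of CCR7 known in mice, Ccl19 and Ccl21a, were not analysed here.

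Ccr2, the receptor for Ccl2, was named after its values were seen and was scarce. It fell in WT from 0.447 ± 0.161 CPM to 0.0803 ± 0.0975 CPM (edgeR, adjusted p = 0.0132) and in Scnn1b-Tg from 0.551 ± 0.116 CPM to 0.147 ± 0.0314 CPM (edgeR, adjusted p = 0.0156). Of 5 atypical receptors listed, 4 were analysed and only Ccrl2, which binds chemerin without signalling, was tested. It went up in WT from 88.6 ± 5.71 CPM to 315 ± 29 CPM (log2 1.83 ± 0.13, edgeR, adjusted p = 1.32e-06), and in Scnn1b-Tg from 90 ± 10.7 CPM to 431 ± 79.9 CPM (2.25 ± 0.13, edgeR, adjusted p = 2.10e-07).

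**Figure D5:**
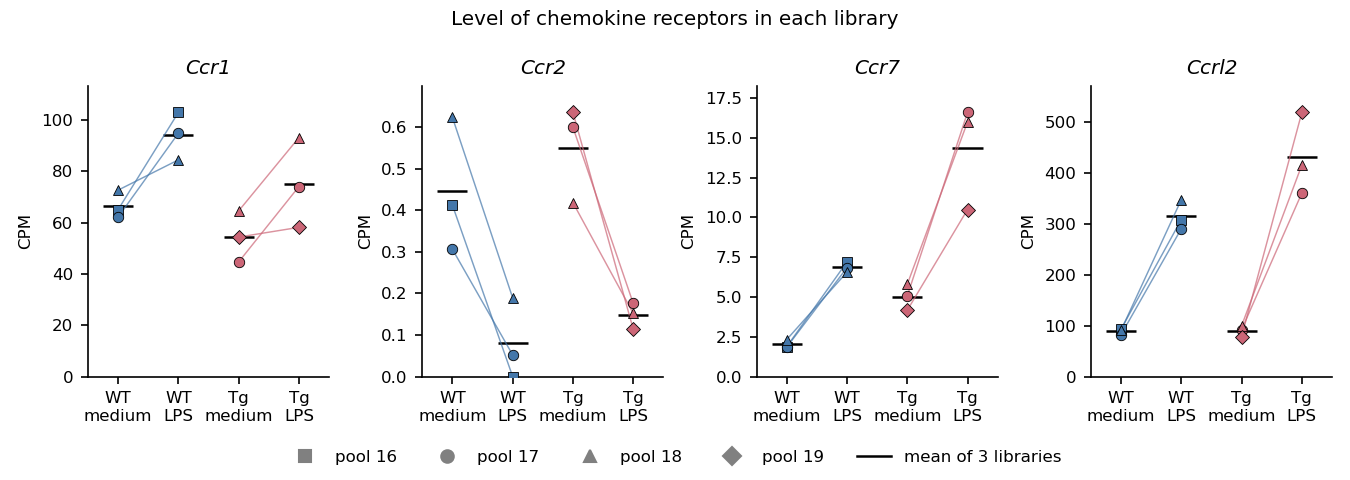
Level of 4 chemokine receptors in CPM (vertical axes, linear from 0) in the 4 groups, with symbols for libraries by pool, thin lines joining the libraries of a pool and black bars for means of 3. Ccr7 in Scnn1b-Tg medium, at 4.17 to 5.8 CPM, lies above WT medium, at 1.85 to 2.33 CPM, and Ccrl2 is higher with LPS in all 6 pools.

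Among the 15 other CC ligands listed, 8 were analysed and 5 tested. With LPS 1 rose in each genotype, Ccl5, which was also the only one to differ between genotypes, at 38.4 ± 4.64 CPM in WT LPS and 176 ± 30.3 in Scnn1b-Tg LPS (log2 2.06 ± 0.13, edgeR, adjusted p = 9.14e-05). Ccl22, a ligand of CCR4 that neighbours Ccl17 on chromosome 8, was at 11.4 ± 3.79 CPM in WT medium and 17 ± 10.1 with LPS, and at 11.6 ± 3.85 and 15.2 ± 5.11 CPM in Scnn1b-Tg, with overlap throughout (edgeR, adjusted p = 0.297 and 0.506). Neither Ccl17 nor Ccl22 therefore passed in any comparison.

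Of 16 genes for receptor signalling and shut-off, 15 were analysed and 14 tested. In WT 1 rose with LPS and 5 fell, and in Scnn1b-Tg 2 rose and 4 fell. Rgs2, which ends G protein signals, fell in WT from a mean of 51.1 CPM to 4.16 CPM (log2 -3.62 ± 0.15, edgeR, adjusted p = 4.02e-08) and in Scnn1b-Tg from 60.5 CPM to 3.07 CPM (-4.28 ± 0.16, edgeR, adjusted p = 1.40e-08). Gnai2, the inhibitory G protein subunit that chemokine receptors use, fell by 0.45 on the log2 scale in both, with 1130 CPM in WT medium against 832 with LPS, and 1150 against 843 CPM in Scnn1b-Tg. Rac2, a small GTPase of leukocyte movement, rose in both, with 134 CPM in WT medium against 176 with LPS, and 150 against 235 CPM in Scnn1b-Tg. None of the list passed between genotypes.

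From 8 genes for chemokine mRNA decay and trimming, all were analysed and 7 tested, with 2 higher and 2 lower with LPS in WT and 2 higher and 3 lower in Scnn1b-Tg. The metalloproteinases Mmp12 and Mmp14, which can cleave chemokines, rose by a log2 change of 2.32 and 4.29 in WT and of 2.66 and 5.06 in Scnn1b-Tg. Of the decay factors that bind AU-rich elements, Zfp36l2 fell by 1.16 on the log2 scale in WT and by 1.40 in Scnn1b-Tg. Zfp36, also called tristetraprolin, was at log2 0.03 ± 0.10 in WT (edgeR, adjusted p = 0.836) and -0.36 ± 0.10 in Scnn1b-Tg (edgeR, adjusted p = 0.0181). The difference between these responses did not pass for any gene of the list (edgeR).

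Likeness between genes is given as Pearson's r of log2 CPM over the 12 libraries, which share their LPS and batch differences, as a description only. Ccl3 and Ccl4 had r = 0.99 with each other, 0.86 and 0.89 with Ccl9 and -0.63 and -0.62 with Ccl6. The genes most like Ccl3 were Slamf6, Ms4a6d and Fpr1 (r = 0.996 each), and those most like Ccl4 were Plpp3, Ier3 and Slc31a2 (r = 0.996, 0.995 and 0.995). Ccl6 was most like Chchd10, Eif2d and Hist1h1c (r = 0.957, 0.954 and 0.933), and Ccl9 most like Lztfl1, Abracl and Ncf4 (r = 0.952, 0.951 and 0.950). Chchd10, Eif2d, Lztfl1 and Abracl overlap a gene on the other strand, which makes their counts uncertain.

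With each group centred on its mean, so that the spread between pools remained, Ccl3 and Ccl4 had r = 0.70, Ccl3 and Ccl6 had r = 0.71, Ccl4 and Ccl9 had r = 0.81, and Ccl6 and Ccl9 had r = 0.05. Ccl3 also had r = 0.51 with Ccl9, and Ccl4 had r = 0.39 with Ccl6, so the members did not split into separate pairs. This centring left the batch difference in, and each pool entered with its medium and its LPS library. These values are therefore a description only. The most alike genes were then Ndufaf2, Tpm4 and Anapc13 for Ccl3 (r = 0.973, 0.965 and 0.965), Glt8d1, Ctdsp1 and Slc25a43 for Ccl4 (0.973, 0.950 and 0.941), Spats2, Man1a and Acaa1b for Ccl6 (0.957, 0.938 and 0.934), and Fkbp1b, Wdr89 and Gm13571 for Ccl9 (0.971, 0.939 and 0.934). For the scarce members r was lower over the 12 libraries, with Klhdc10, Dctn2 and 1810043G02Rik nearest to Ccl2 (0.866, 0.833 and 0.803) and Fbf1, Tom1l2 and Gga2 nearest to Ccl17 (0.895, 0.863 and 0.817). After centring, the genes nearest to Ccl2 were the unnamed ENSMUSG00000078441, Mcrip1 and Rcor3 (0.944, 0.905 and 0.900), and those nearest to Ccl17 were Evi2, Actr1b and Vav2 (0.959, 0.943 and 0.932). Of the genes named here, Ndufaf2, Tpm4, Anapc13, Glt8d1, Man1a, Acaa1b, Gm13571, Tom1l2, Gga2 and Rcor3 overlap a gene on the other strand and Evi2 overlaps genes on its own strand, so their counts are uncertain too.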

How the data were processed

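Full-length cDNA libraries of 12 pooled AM samples were sequenced as read pairs of 125 bp. Per the labels and the study's methods, the authors aligned reads to mm10 with HISAT2 in unstranded mode, quantified GENCODE M20 genes with StringTie and deposited estimated counts as whole numbers. Of the counts from 1 to 30, 55.3% were 0 or 3 modulo 5, so a read can be worth about 2.5 counts, and 3 reads were taken as 8 counts. Symbols and positions came from GENCODE M21 on mm10, where 20158 of 20551 IDs were found.

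Genes were kept by filterByExpr (edgeR 4.0.16, R 4.3.3, minimum count 10, minimum total 15) and scaled by TMM. A quasi-likelihood model with group and batch was fitted to all 12 libraries, with two-sided tests and Benjamini-Hochberg adjustment over all genes tested at 0.05. The fit was tested on simulated data. DESeq2 1.42.0, voom (limma 3.58.1) and other filters, scalings, designs and left-out libraries were run as alternatives. Pool changes and batch differences used log2 of CPM plus 0.5. Likeness was computed on log2 CPM (prior count 2) for genes of at least 5 CPM on average. Shares and pool changes were tested by exact permutation (scipy 1.17.1). P-values of the main fit measure the spread between libraries within groups, treating the medium and LPS library of a pool as independent. Those of the fit blocked by pool and of the pool changes measure the spread of the LPS response between pools of animals. For the shares they measure the spread between pools within a treatment.

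The medium and LPS libraries of a pool deviated together from their group means (r = 0.14 to 0.34 in all 6 pools), so pool numbers, which the labels give, pair them. WT and Scnn1b-Tg libraries of the same number also deviated together, but they shared a library batch too, so number and batch could not be told apart. Their r was 0.17 in medium and 0.26 with LPS for number 17, and 0.11 and 0.23 for number 18. The main fit did not block by number. The members and gene lists were chosen with earlier results of these data known. Besides the members, listed genes were named where they passed between genotypes or averaged at least 5 CPM, as were all tested genes of the cluster within 150 kb of Ccl3 and, for each member, the 3 most alike genes before and after centring. Results for some listed genes are not reported here.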

Additional observations from a re-analysis of the deposited data

How the results depend on the processing

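No member passed in either genotype comparison or in the difference of the LPS responses under any alternative run, and Ccl3 and Ccl4 kept their calls with LPS in both genotypes under all of them. The number of members called with LPS in WT was 2 without the batch term, and between 2 and 4 when single libraries were left out, with 2 without WT medium 17. In Scnn1b-Tg it was 3 without the batch term and 3 to 4 without single libraries. With the replicate block by pool, it stayed at 4 in each genotype, with Ccl6 at log2 -1.25 in WT and -1.35 in Scnn1b-Tg (edgeR, adjusted p = 1.62e-04 and 7.69e-05) and Ccl9 at 0.66 and 1.05 (edgeR, adjusted p = 1.04e-04 and 5.30e-06), and the block changed no other call of a member. In the pairing by number across genotypes in medium, Ccl2 turned to -0.05 and Ccl9 to 0.12. Without the batch term, the medium difference of Ccl9 turned to 0.03 and the difference of LPS responses of Ccl6 to 0.04.

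Leaving out single libraries turned the sign of some uncalled log2 values. With LPS they ranged from -0.29 to 0.69 for Ccl2 in WT, from -0.16 to 1.15 for Ccl2 in Scnn1b-Tg and from -0.54 to 0.34 for Ccl17 in Scnn1b-Tg. Between genotypes in medium they ranged from -0.42 to 0.83 for Ccl2, from -0.12 to 0.41 for Ccl4 and from -0.31 to 0.08 for Ccl9, and with LPS from -0.18 to 0.59 for Ccl4. For the difference of LPS responses they ranged from -0.45 to 1.05 for Ccl2, from -0.25 to 0.44 for Ccl4 and from -0.64 to 0.32 for Ccl6. The number of members whose shares did not overlap between genotypes was 2 in medium (2 to 5 without single libraries, 5 without Tg 18) and 1 with LPS (1 to 3, 3 without WT 18 or Tg 18, and 2 without Tg 19), and 0 with LPS when shares were not divided by length.

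Over all genes, DESeq2 called 501 in the medium comparison, 146 in the LPS comparison and 77 for the difference of responses, where edgeR called 46, 7 and 0. In the same first 2 comparisons edgeR called 18 and 5 without the filter, 28 and 4 without the batch term, 20 and 2 with only the groups compared, and 77 and 12 with the replicate block, and voom called 32 and 11. Without single libraries the counts were 3 to 49, 2 to 10 and, for the difference of responses, 0 to 1. Ccl2 and Ccl17 fell below the filter when it asked for a mean of 50 counts or when counts were divided by 5, so these give no value for them. The edgeR method of earlier releases, chosen after seeing the data, called the same number of members in each comparison. The cause of these changes was not tested. Depth limits Ccl2 and Ccl17, which rest on at most 105 and 50 counts per library.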
